A study of Mus musculus with 2 samples.

Results

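The genes described here are 10 genes of arterial identity and Notch signalling in blood vessels: Bmx, Gkn3, Efnb2, Sema3g, Vegfc, Dll4, Hey1, Notch4, Unc5b and Mgp. They were taken by symbol from the feature list, where all 10 were found among 25906 genes. Each was measured as unique molecular identifiers (UMIs), which count captured transcripts, in single cells of the adult mouse brain sorted as endothelial cells and astrocytes. There was 1 library from mice labelled IL34LacZ/LacZ, which the series treats as knockout for interleukin-34, and 1 library from mice labelled IL34LacZ/+, which it treats as wild type although these mice also carry a LacZ allele. Interleukin-34 is a ligand of the macrophage receptor Csf1r, and the series title concerns perivascular macrophages and vascular function. Not given in the sources used here are the age beyond adult, the sex, how many mice were pooled for a library and the surface markers of the sort. Because each genotype has a single library, nothing could be tested across samples: no p-value is given, and no difference between the libraries has a replicate check. Levels are UMIs per 1000000 UMIs of the cells summed (CPM), and ranges in brackets are 95% intervals, which take in the error of counting alone.

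In blood vessels, Notch signalling helps to set arterial against venous fate. Delta-like 4, the product of Dll4, sits on one endothelial cell and activates Notch receptors on its neighbour, whose cleaved inner part joins the DNA-binding protein RBPJ and switches on repressors of the HEY family. Arteries carry ephrin-B2, encoded by Efnb2, on their surface, and veins carry its receptor EphB4. In the adult brain the arterial endothelium grades into capillaries and then veins, and Bmx, Gkn3, Sema3g and Vegfc are used as markers of its arterial end.

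Promoter sequence was at hand for 8 of the 10 genes, from RefSeq on GRCm38.p6, and the 250 bases before the transcription start were searched on both strands for 3 motifs. Those of Bmx, Gkn3 and Dll4 are shown because the patterns of these genes differed. Bmx and Gkn3, a kinase gene and a secreted-protein gene, marked arterial-like cells. Most endothelial UMIs of the Notch ligand gene Dll4 lay outside arterial-like cells. Capitals mark the RBPJ core TGGGAA and the SOX core ACAAAG.
Bmx, chrX:164258194-164258443, minus strand: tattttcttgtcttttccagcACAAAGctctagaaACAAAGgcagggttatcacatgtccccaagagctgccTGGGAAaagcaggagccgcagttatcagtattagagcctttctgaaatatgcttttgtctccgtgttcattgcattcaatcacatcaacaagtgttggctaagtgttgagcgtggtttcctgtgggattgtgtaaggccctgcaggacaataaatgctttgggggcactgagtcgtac
Gkn3, chr6:87388936-87389185, minus strand: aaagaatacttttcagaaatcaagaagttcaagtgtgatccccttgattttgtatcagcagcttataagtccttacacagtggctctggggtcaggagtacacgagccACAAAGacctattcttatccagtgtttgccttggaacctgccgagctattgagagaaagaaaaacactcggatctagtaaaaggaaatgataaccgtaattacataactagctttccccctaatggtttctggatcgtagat
Dll4, chr2:119325534-119325783, plus strand: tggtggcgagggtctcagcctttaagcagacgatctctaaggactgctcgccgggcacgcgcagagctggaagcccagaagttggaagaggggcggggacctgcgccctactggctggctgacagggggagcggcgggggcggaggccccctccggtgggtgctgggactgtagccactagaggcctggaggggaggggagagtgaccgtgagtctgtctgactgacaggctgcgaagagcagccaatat
The RBPJ core was found in 1 of the 8 windows, that of Bmx, 178 bases before the start, and in 21.6% of 32851 promoters of the same length. The SOX core was found in the windows of Bmx, 229 and 215 bases before the start, and of Gkn3, 142 bases before it, and in 16.5% of all promoters. The E-box CACGTG, to which HEY proteins bind, was in none of the 8 windows and in 6.02% of all promoters. The windows differed in base composition, with 40.8% G and C for Gkn3 and 45.6% for Bmx, against 58.4% for Notch4, 60.4% for Sema3g, 65.6% for Dll4, 66.8% for Unc5b, 71.6% for Vegfc and 72.0% for Efnb2. These matches describe letters in the windows only.

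There were 5400 barcodes and 36696941 UMIs in the library labelled IL34LacZ/LacZ, and 3901 barcodes and 26679053 UMIs in the library labelled IL34LacZ/+. Of these barcodes 1167 and 1646 were kept as cells, at medians of 10366 and 8026 UMIs per cell, and 2 kept barcodes occurred in both libraries. Clusters were built without the 10 genes and named from marker lists that hold none of them. Endothelial-like cells numbered 303 in the library labelled IL34LacZ/LacZ and 511 in the library labelled IL34LacZ/+. Of these, 15 and 32 formed an arterial-like sub-cluster, 39 and 38 were venous-like and 8 and 8 were fenestrated-like. In the arterial-like sub-cluster 10 of 12 arterial markers were detected, each in at least 10% of cells. The remaining 241 and 433 endothelial-like cells reached no zone's threshold and are called other endothelial cells. Smooth muscle genes summed to 319 and 224 CPM in arterial-like cells, nearly all from Mylk at 307 and 210 CPM, while Acta2 and Myh11 were at 0 and Tagln at 1 UMI in each library, and their part in the arterial-like values was not tested. Haemoglobin transcripts made up 4.72% of endothelial UMIs in the library labelled IL34LacZ/LacZ and 0.286% in the other, but 0.256% and 0.197% in arterial-like cells. Il34 itself was not lower in the library labelled IL34LacZ/LacZ in the classes that held most of it. In pericyte-like cells it stood at 516 CPM in the library labelled IL34LacZ/LacZ and 320 CPM in the library labelled IL34LacZ/+, from 134 and 67 UMIs, and in fibroblast-like cells at 433 and 347 CPM, from 116 and 78 UMIs. Meningeal border-like cells went the other way, with 0 UMIs in 85 cells of the library labelled IL34LacZ/LacZ and 8 UMIs in 95 cells of the library labelled IL34LacZ/+. Which part of Il34 the LacZ allele removes is not stated in the labels, so every direction below rests on them.

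The 10 genes fell into different patterns across the cell classes of the sort. Among 8 classes with at least 20 cells in each library, 5 of the 10 genes (Gkn3, Sema3g, Vegfc, Dll4 and Notch4) were highest in endothelial-like cells in both libraries. Hey1 was highest in astrocyte-like cells, Unc5b in oligodendrocyte-like cells and Mgp in meningeal border-like cells, again in both. The intervals of Hey1 in astrocyte-like and endothelial-like cells overlapped in both libraries. Its levels in the libraries labelled IL34LacZ/LacZ and IL34LacZ/+ were 23.4 and 30.4 CPM in astrocyte-like cells. In endothelial-like cells they were 18.1 CPM (12.4 to 25.6) and 25.7 CPM (19.9 to 32.7). Bmx and Efnb2 were highest in endothelial-like cells of the library labelled IL34LacZ/+. In cells labelled IL34LacZ/LacZ, Bmx was highest in 36 neuron-like cells (54.6 CPM, 16 UMIs in 4 cells), a class that also held the endothelial list at 2468 CPM. Efnb2 was highest there in fibroblast-like cells, from 22 UMIs. Both intervals overlapped those of endothelial-like cells, at 41.4 CPM (32.4 to 52.0) for Bmx and 67.5 CPM (55.9 to 80.7) for Efnb2. Intervals of Vegfc in endothelial-like (108 CPM) and fibroblast-like cells (97.1 CPM) of that library overlapped too.

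**Figure D1:**
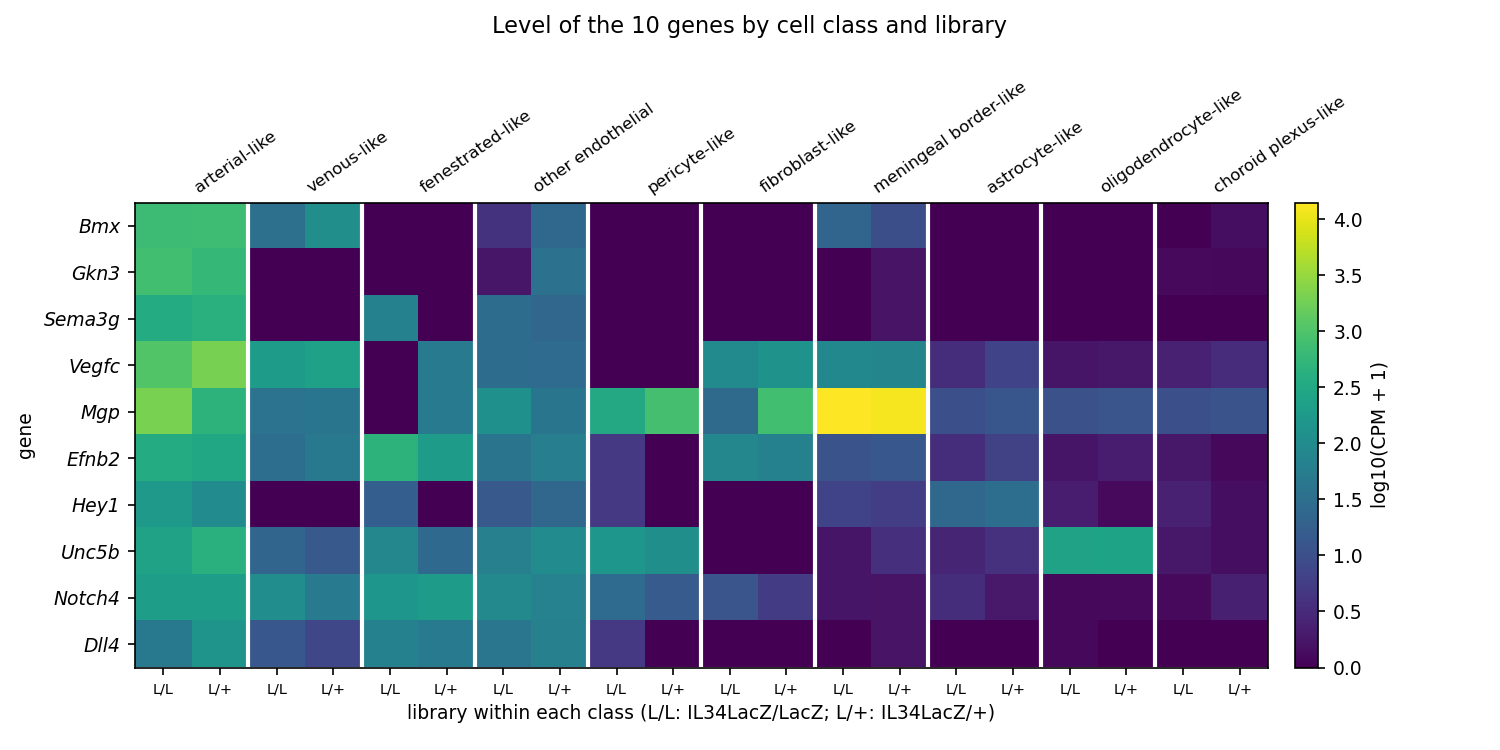
Level of each gene as log10(CPM + 1) by colour, in 10 cell classes and endothelial zones (columns, with the IL34LacZ/LacZ library, L/L, left of the IL34LacZ/+ library, L/+); there is 1 library per genotype and no error is drawn. The arterial-like columns are bright for most genes, Mgp is brightest in meningeal border-like cells, and Unc5b is bright in both oligodendrocyte-like and arterial-like cells.

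Within the endothelium, the arterial-like cells carried most of the 10 genes at several times the level of all other endothelial-like cells. The genes took no part in placing the cells. They were, however, chosen as genes of arterial identity and Notch signalling, with earlier results of these data known. The counts below are therefore descriptions. In the library labelled IL34LacZ/LacZ 9 of the 10 were over 2-fold higher with an interval that left out 1, against 6.41% of 6924 genes measured. All 10 were in the library labelled IL34LacZ/+, against 5.42% of 8345 genes. The median log2 ratio of the 10 genes was 3.90 and 2.97, beside 0.06 and −0.04 over all genes measured. The gene that did not pass was Dll4 in the library labelled IL34LacZ/LacZ, where arterial-like cells held 4 of its UMIs. With each cell thinned to 1000 UMIs, so that many of the genes fell under the minimum of 30 UMIs, 2 and 5 of the 10 passed. Venous-like cells showed another picture against other endothelial cells. Of 7 genes measured in the library labelled IL34LacZ/LacZ, 1 was higher there (Vegfc, beside 5.37% of all genes) and 4 were lower (Sema3g, Dll4, Unc5b and Mgp, beside 5.07%). For the library labelled IL34LacZ/+ it was 2 of 10 higher (Bmx and Vegfc, beside 4.06%) and 5 lower (Gkn3, Sema3g, Dll4, Hey1 and Unc5b, beside 6.19%). In the 8 fenestrated-like cells of each library, 1 gene was higher (Efnb2, beside 9.71%) and 1 lower (Mgp, beside 6.96%) in the library labelled IL34LacZ/LacZ, and 2 were higher (Efnb2 and Notch4, beside 7.19%) and 0 lower (beside 5.05%) in the library labelled IL34LacZ/+.

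**Figure D2:**
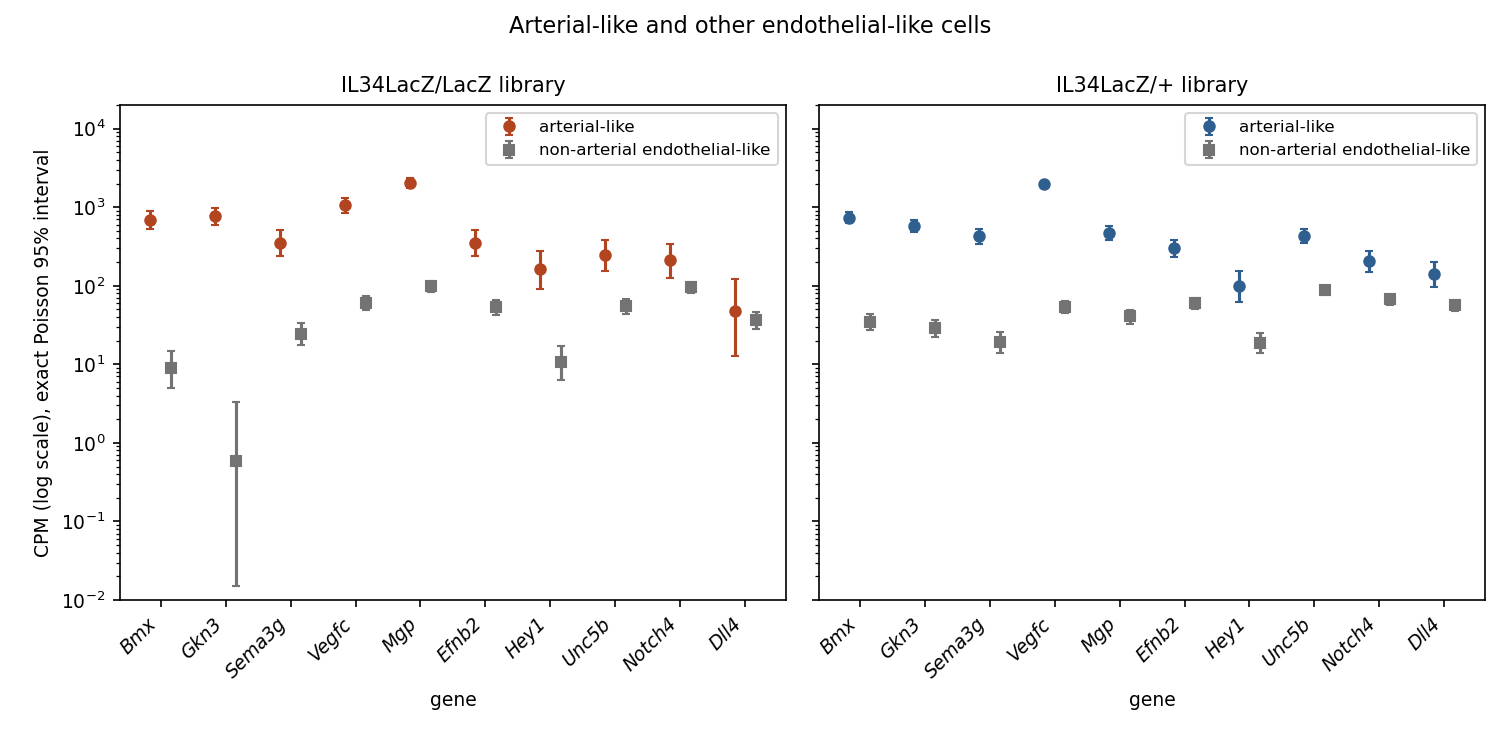
CPM (log scale) of each gene in arterial-like cells (coloured circles) and in all other endothelial-like cells (grey squares), with the IL34LacZ/LacZ library on the left and the IL34LacZ/+ library on the right; bars are exact Poisson 95% intervals of counting error. The circles lie above the squares with intervals apart for every gene but Dll4 on the left, where 47.3 CPM stands beside 36.3 CPM.

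Among the ligand genes, Vegfc encodes a growth factor that acts on the receptor Flt4 and is best known for lymphatic growth. In arterial-like cells Vegfc reached 1064 CPM (855 to 1307) in the library labelled IL34LacZ/LacZ and 1952 CPM (1772 to 2147) in the library labelled IL34LacZ/+, with 80% and 93.8% of cells holding a UMI. Venous-like cells came next, with 195 CPM (150 to 249) in the first library and 232 CPM (180 to 293) in the second. Fibroblast-like cells with 97.1 and 129 CPM and meningeal border-like cells with 86.0 and 76.5 CPM followed, and the intervals of these classes overlapped each other. Other endothelial cells held 28.7 and 26.9 CPM, and pericyte-like cells held no UMI. Vegfc was therefore higher in both arterial-like and venous-like cells than in the endothelium left unnamed. The ratio of venous-like over other endothelial cells was log2 2.77 (2.16 to 3.39) and 3.10 (2.57 to 3.64), and that of arterial-like over all non-arterial endothelial-like cells was 4.14 (3.72 to 4.57) and 5.20 (4.91 to 5.49). Vegfc lies on chromosome 8 at 54077606 to 54187096 in GRCm38.

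Sema3g encodes a secreted semaphorin that binds neuropilin-2. It was at 355 CPM (239 to 506) and 425 CPM (343 to 521) in arterial-like cells of the libraries labelled IL34LacZ/LacZ and IL34LacZ/+, and at 28.7 and 22.5 CPM in other endothelial cells. Venous-like cells held 0 UMIs in both libraries, which allows up to 9.15 and 9.92 CPM. In other endothelial cells the transcripts were spread, with no cell above 4 and 2 UMIs. Outside the endothelium and the mixed neuron-like cells, 1 UMI was seen in the classes compared, in a meningeal border-like cell. The log2 ratio of arterial-like over all non-arterial endothelial-like cells was 3.86 (3.13 to 4.58) and 4.46 (3.94 to 5.01). Sema3g lies on chromosome 14 at 31217860 to 31230352.

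Efnb2 encodes the transmembrane ligand ephrin-B2. Its level in arterial-like cells was 355 CPM (239 to 506) in the library labelled IL34LacZ/LacZ and 302 CPM (233 to 384) in the library labelled IL34LacZ/+. In the 8 fenestrated-like cells of each library it stood at 477 CPM (320 to 686) and 198 CPM (85.3 to 389), with overlapping intervals between the zones in both libraries. Fibroblast-like cells followed at 82.2 and 66.7 CPM, and other endothelial cells at 38.7 and 58.8 CPM, in 14.9% and 16.2% of cells, and venous-like cells at 30.5 and 46.3 CPM. Its log2 ratio of arterial-like over non-arterial endothelial-like cells was 2.74 (2.09 to 3.35) and 2.34 (1.90 to 2.77). Efnb2, on chromosome 8 at 8617434 to 8661242, shares its strand with 3 overlapping gene models of the feature list, so some of its reads may have been counted elsewhere.

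Dll4 showed another pattern. It was found in 17.0% and 22.2% of other endothelial cells, at 41.1 CPM (30.8 to 53.7) in the library labelled IL34LacZ/LacZ and 63.7 CPM (53.2 to 75.6) in the library labelled IL34LacZ/+. Arterial-like cells held 47.3 CPM (12.9 to 121, 4 UMIs in 3 of 15 cells) and 142 CPM (96.3 to 201, 31 UMIs in 18 of 32 cells). Venous-like cells held 12.2 and 6.61 CPM, from 4 and 2 UMIs. No endothelial-like cell had more than 4 Dll4 UMIs, and 6.15% and 18.8% of the endothelial Dll4 UMIs lay in arterial-like cells, against 98.5% and 64.8% for Gkn3. Outside the endothelium and the neuron-like cells, 2 Dll4 UMIs were counted in the library labelled IL34LacZ/LacZ and 1 in the library labelled IL34LacZ/+ over the 6 other classes compared. Dll4 lies on chromosome 2 at 119325784 to 119335962.

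The receptor Notch4, which is largely restricted to endothelium, was present in every zone. It stood at 213 CPM (126 to 336) and 206 CPM (150 to 275) in arterial-like cells, 148 and 198 CPM in fenestrated-like cells, 107 CPM (74.3 to 148) and 52.9 CPM (30.2 to 85.9) in venous-like cells and 89.9 and 67.1 CPM in other endothelial cells, in the libraries labelled IL34LacZ/LacZ and IL34LacZ/+ in that order. The intervals of venous-like and other endothelial cells overlapped in both libraries. The ratio of arterial-like over non-arterial endothelial-like cells was log2 1.16 (0.37 to 1.87) and 1.61 (1.10 to 2.09), the lowest of the genes that passed in the library labelled IL34LacZ/LacZ. Notch4 lies on chromosome 17 at 34564268 to 34588503.

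Unc5b encodes a netrin receptor that also binds Robo4 and Flrt2. In arterial-like cells it reached 248 CPM (154 to 379) in the library labelled IL34LacZ/LacZ and 434 CPM (351 to 531) in the library labelled IL34LacZ/+, and in other endothelial cells 62.0 and 99.9 CPM. Venous-like cells lay lower, at 21.4 and 13.2 CPM, from 7 and 4 UMIs. The log2 ratio of arterial-like over non-arterial endothelial-like cells was 2.18 (1.42 to 2.88) and 2.31 (1.94 to 2.67). Most Unc5b UMIs lay outside the endothelium. Oligodendrocyte-like cells held 1045 UMIs at 242 CPM (228 to 257) and 875 UMIs at 252 CPM (235 to 269), in 95.3% and 88.8% of cells at median depths of 16814 and 13727 UMIs. Choroid plexus epithelium-like cells, at median depths of 13837 and 12343 UMIs, held a UMI in 1.21% and 0.575% of cells. Pericyte-like cells held 150 CPM (107 to 205) and 114 CPM (73.4 to 170). Endothelial-like cells gave 9.19% and 24.5% of all Unc5b UMIs. Unc5b, on chromosome 10 at 60762593 to 60831581, overlaps the gene model Gm19972 on the same strand.

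Bmx encodes a cytoplasmic tyrosine kinase of the Tec family found in arterial endothelium and endocardium. It was at 685 CPM (520 to 886) and 736 CPM (627 to 859) in arterial-like cells of the libraries labelled IL34LacZ/LacZ and IL34LacZ/+, with a UMI in 12 of 15 and 30 of 32 cells. Non-arterial endothelial-like cells held 8.93 and 34.8 CPM, and the log2 ratio was 6.26 (5.42 to 7.19) and 4.40 (4.01 to 4.80). Bmx lies on chromosome X at 164192842 to 164258193. Venous-like cells of the library labelled IL34LacZ/+ stood at 109 CPM, but 1 cell held 30 of the 33 UMIs, and that cell had 27 UMIs of venous and 4 of arterial markers. Pericyte-like, fibroblast-like, astrocyte-like and oligodendrocyte-like cells held 0 Bmx UMIs in both libraries. Meningeal border-like cells held 29 and 13 UMIs, at 21.5 CPM (14.4 to 30.9) and 8.81 CPM (4.69 to 15.1), in 12.9% and 7.37% of cells. Among 892 genes with at least 20 UMIs in arterial-like cells of each library, Bmx ranked 8th by the lower of the arterial ratios of both libraries, with Gkn3 10th, Vegfc 11th, Sema3g 13th, Mgp 16th, Efnb2 28th and Unc5b 33rd. Dll4, Hey1 and Notch4 were not ranked, with 4, 14 and 18 UMIs in arterial-like cells of the library labelled IL34LacZ/LacZ. The 5 genes of highest rank outside the 10 genes and the zone markers were Dkk2, Efna5, Pcsk5, Plcg2 and Kirrel3, and Dkk2, a secreted modulator of Wnt signalling, stood at 284 and 224 CPM in arterial-like cells against 1.79 and 1.68 CPM in all other endothelial-like cells.

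Hey1, a transcriptional repressor switched on by Notch, was at 165 CPM (90.5 to 278, 14 UMIs) and 101 CPM (63.0 to 152, 22 UMIs) in arterial-like cells of the libraries labelled IL34LacZ/LacZ and IL34LacZ/+. Other endothelial cells held 13.2 and 22.0 CPM, and venous-like cells none, which allows up to 9.15 and 9.92 CPM. Astrocyte-like cells held 23.4 CPM (15.6 to 33.9) and 30.4 CPM (23.4 to 38.9), with a UMI in 20.4% and 19.4% of cells, against 1.72% and 0.4% of oligodendrocyte-like cells, which were deeper. Its log2 ratio of arterial-like over non-arterial endothelial-like cells was 3.95 (2.83 to 5.04) and 2.41 (1.61 to 3.18). Hey1 lies on chromosome 3 at 8663359 to 8667256.

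Gkn3, a secreted gastrokine known from the stomach and from brain arteries, had the highest share of its endothelial UMIs in arterial-like cells among the 10 genes in the library labelled IL34LacZ/LacZ. Arterial-like cells held 768 CPM (593 to 979) in that library and 581 CPM (484 to 691) in the library labelled IL34LacZ/+, in 7 of 15 and 20 of 32 cells. Non-arterial endothelial-like cells held 1 UMI and 69 UMIs, at 0.595 and 28.9 CPM, with log2 ratios of 10.33 (7.80 to 15.66) and 4.33 (3.89 to 4.77). Gkn3 lies on chromosome 6 at 87383256 to 87388935. Of those 69 UMIs, 32 lay in 1 cell and 28 in another, and no further cell had more than 2. The cell with 32 held 9 of the 10 genes, 23 Mgp UMIs and 13 UMIs of arterial markers. Venous-like, fenestrated-like, pericyte-like, fibroblast-like, astrocyte-like and oligodendrocyte-like cells held 0 Gkn3 UMIs in both libraries.

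Mgp encodes matrix Gla protein, an inhibitor of calcification and of BMP ligands. By far the most Mgp lay in meningeal border-like cells: 14067 CPM (13867 to 14268) in the library labelled IL34LacZ/LacZ and 12326 CPM (12147 to 12506) in the library labelled IL34LacZ/+. These held 18965 of 19705 and 18195 of 18878 Mgp UMIs. Astrocyte-like, oligodendrocyte-like and choroid plexus epithelium-like cells held a like low level. It was 9.21 to 9.50 CPM in the library labelled IL34LacZ/LacZ and 10.3 to 11.9 CPM in the library labelled IL34LacZ/+. Whether these counts came from free RNA was not tested. Arterial-like cells stood well above that level, at 2033 CPM (1740 to 2360) and 471 CPM (384 to 571), and venous-like cells at 36.6 and 39.7 CPM. The log2 ratio of arterial-like over non-arterial endothelial-like cells was 4.37 (4.05 to 4.69) and 3.53 (3.12 to 3.95). Mgp lies on chromosome 6 at 136872435 to 136875823. Pericyte-like cells held 316 CPM (251 to 392) and 849 CPM (729 to 984), and fibroblast-like cells 26.1 CPM (10.5 to 53.9) and 792 CPM (680 to 917). Single cells weighed on these classes: 1 fibroblast-like cell of the library labelled IL34LacZ/+ held 137 of 178 UMIs, 1 pericyte-like cell of that library held 98 of 178, and 1 neuron-like cell of the library labelled IL34LacZ/LacZ held 197 of 215.

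Several of the 10 genes were often found in the same arterial-like cell. Arterial-like cells held a UMI of a median of 6 of the 10 in the library labelled IL34LacZ/LacZ (range 2 to 9) and 7 in the library labelled IL34LacZ/+ (range 4 to 10), at median depths of 3339 and 5903 UMIs. At 1000 UMIs per cell the median was 3 in each. At least 5 of the 10 genes were found in 10 of 15 and 29 of 32 arterial-like cells, against 2 of 241 and 13 of 433 other endothelial cells, where the median was 1. Of Bmx, Gkn3, Sema3g and Vegfc, at least 3 were present in 10 of 15 and 27 of 32 arterial-like cells, in 0 and 4 of the other endothelial cells, and in 0 and 0 of the venous-like cells. Across the 47 arterial-like cells, with each library centred, the levels per cell of Bmx and Gkn3 had a Pearson r of 0.45, Gkn3 and Mgp 0.43, and Sema3g and Vegfc 0.38, while Unc5b and Mgp had −0.36. These cells come from 2 libraries, differ in depth and are few, so the correlations are descriptions. Among them, 1 cell held 14 Bmx, 50 Gkn3 and 134 Mgp UMIs, and another held 13, 47 and 21. The weight of these cells in r was not tested.

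**Figure D3:**
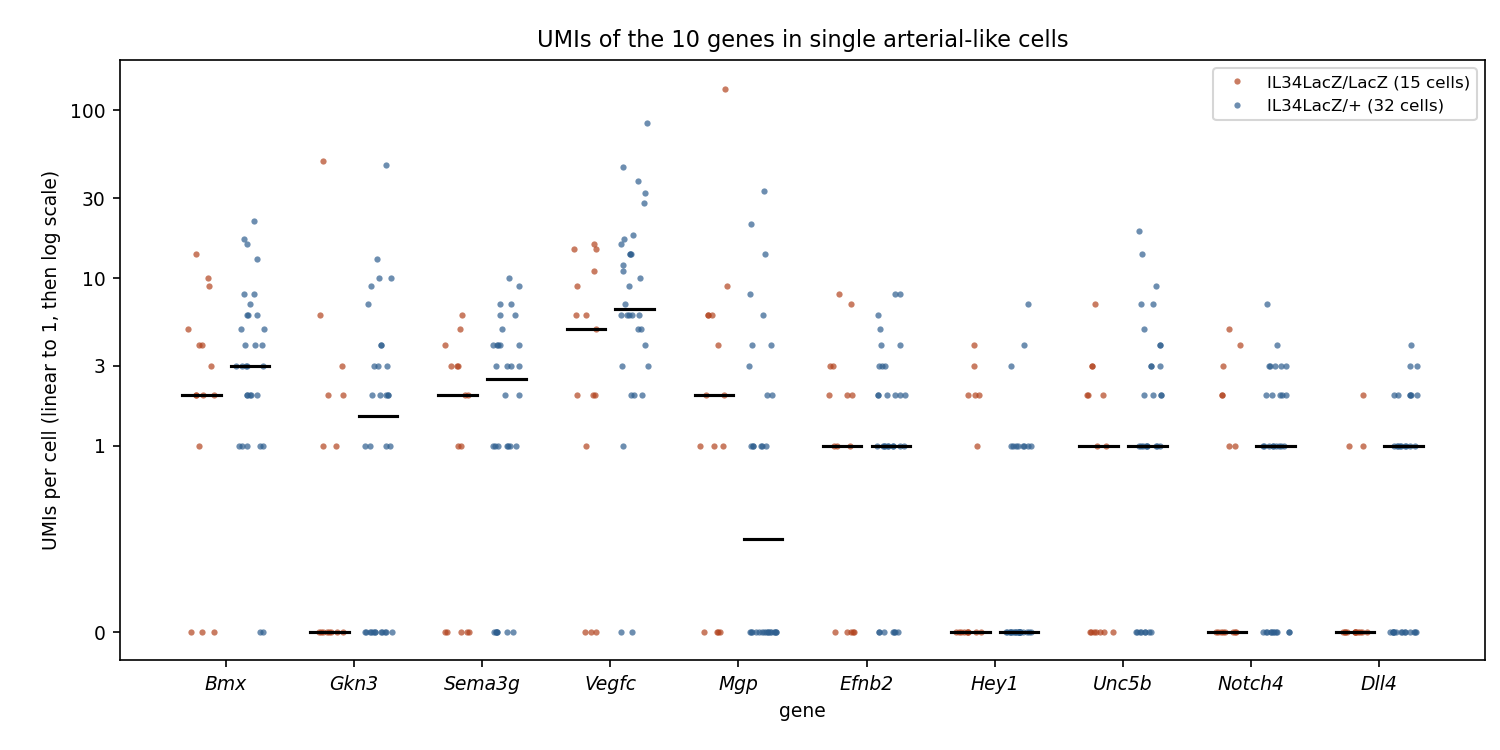
UMIs of each gene in every arterial-like cell (points; y axis linear up to 1 and logarithmic above), with the 15 cells of the IL34LacZ/LacZ library left of the 32 cells of the IL34LacZ/+ library; black lines are medians and no error is drawn. A single cell of the IL34LacZ/LacZ library holds 134 Mgp and 50 Gkn3 UMIs, beside highest values of 33 and 47 in the IL34LacZ/+ library, while the median of Vegfc is 5 and 6.5 UMIs.

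Single cells weighed heavily on some sums. In the library labelled IL34LacZ/LacZ, 1 arterial-like cell of 12270 UMIs held 134 of the 172 arterial Mgp UMIs, 50 of the 65 arterial Gkn3 UMIs and 14 of the 58 arterial Bmx UMIs. That cell also had 69 UMIs of arterial markers, 19 of venous markers and 0 of the meningeal border list. Another cell, in the unnamed zone, held 138 Mgp UMIs with 4 UMIs of the meningeal border list, 3 of the fibroblast list and 163 of the endothelial list. Together these 2 cells held 80.7% of the endothelial Mgp UMIs of that library. The highest cell of the library labelled IL34LacZ/+ held 16.5%. Dll4, Notch4, Unc5b and Efnb2 were spread, with no cell above 8.40% of a library's endothelial UMIs.

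The wider Notch pathway and its partners were followed through lists chosen with earlier results of these data known. The first list held Notch pathway genes and partners. In arterial-like over non-arterial endothelial-like cells, 3 of its 19 measured genes were higher and 2 lower in the library labelled IL34LacZ/LacZ. In the library labelled IL34LacZ/+, 2 of 20 were higher and 1 lower. Of all genes, 6.41% and 5.42% were higher and 4.58% and 4.82% lower. The list's median log2 ratio was 0.10 and −0.07, or 0.15 and −0.07 where genes with 0 UMIs are set at their limit. The Notch ligand gene Jag1 was higher in both, at 378 against 76.8 CPM and at 288 against 55.8 CPM, as was Jag2, at 355 against 122 CPM and at 375 against 137 CPM. The receptor gene Notch1 passed in the library labelled IL34LacZ/LacZ, at 414 against 174 CPM. Maml3, a coactivator of Notch, was lower in both, with 0 and 3 UMIs in arterial-like cells, and the coreceptor Nrp1 was lower in the library labelled IL34LacZ/LacZ, at 378 against 838 CPM. Other Notch targets were scarce, with 3 and 3 Hey2 UMIs and 4 and 12 Hes1 UMIs in arterial-like cells.

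Of the arterial regulators and junction genes, 2 of 14 were higher and 1 lower in the library labelled IL34LacZ/LacZ, and 1 of 14 was higher and 0 lower in the library labelled IL34LacZ/+, with list medians of log2 0.27 and 0.14. Of all genes measured, 6.41% and 5.42% were higher in arterial-like cells, and 4.58% and 4.82% lower. The transcription factor gene Sox17 was higher in both, at 437 against 167 CPM and at 453 against 220 CPM. Sox18 passed in the library labelled IL34LacZ/LacZ, at 201 against 86.3 CPM, and in the other had 279 against 150 CPM, under 2-fold. Ets1 was lower in the library labelled IL34LacZ/LacZ, at 461 against 1010 CPM. The connexin genes Gja4 and Gja5 gave 5 and 2, and 3 and 7 UMIs in arterial-like cells. Of 5 measured venous identity genes, 2 and 4 were lower and 0 higher. Their list medians were −1.01 and −1.20, or −0.88 and −1.20 where genes with 0 UMIs are set at their limit. Nr2f2, which encodes the venous regulator COUP-TFII, held 0 UMIs in arterial-like cells, which allows up to 35.5 and 13.7 CPM, against 46.4 and 36.9 CPM in non-arterial endothelial-like cells. Nrp2 held 2 and 0 UMIs, against 173 and 148 CPM. Ephb4, the receptor of ephrin-B2, was lower in the library labelled IL34LacZ/+, at 45.7 against 105 CPM. Emcn was lower there too, at 512 against 1125 CPM.

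Among receptors and partners of the 10 genes, 1 of 13 was higher and 4 lower in the library labelled IL34LacZ/LacZ. In the library labelled IL34LacZ/+ 2 of 13 were higher and 3 lower. Of all genes, 6.41% and 5.42% were higher and 4.58% and 4.82% lower. The list medians were −0.76 and −0.60, or −0.13 and −0.60 where genes with 0 UMIs are set at their limit. The value of the first library thus depends on how 0 UMIs are treated. Ntn1, which encodes the ligand netrin-1, was higher in arterial-like cells in both, at 213 against 72.6 CPM and at 183 against 39.8 CPM, and was also higher in venous-like than in other endothelial cells, at 296 against 19.4 CPM and at 195 against 17.1 CPM. Ntn4 was higher in arterial-like cells of the library labelled IL34LacZ/+, at 128 against 37.3 CPM. Flrt2 was lower, with 0 UMIs against 445 CPM and 41.2 against 426 CPM. Robo4 was lower in the library labelled IL34LacZ/LacZ, where it had 70.9 against 179 CPM. Nrp1, Nrp2 and Ephb4 stand in this list too.

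Between the libraries, over all endothelial-like cells, 5 of the 10 genes were lower in the library labelled IL34LacZ/LacZ past 1.5-fold with an interval that left out 1, against 7.13% of 9551 genes measured, and 1 was higher, against 2.57%. The median log2 ratio of the 10 genes was −0.64, beside −0.09 over all genes. Bmx stood at 41.4 CPM in the library labelled IL34LacZ/LacZ and 93.7 CPM in the library labelled IL34LacZ/+, a log2 ratio of −1.18 (−1.58 to −0.80). Gkn3 stood at 37.4 and 75.3 CPM, −1.01 (−1.43 to −0.60), Vegfc at 108 and 213 CPM, −0.97 (−1.22 to −0.73), Unc5b at 64.1 and 117 CPM, −0.87 (−1.19 to −0.55), and Dll4 at 36.8 and 63.4 CPM, −0.78 (−1.22 to −0.36). Mgp was higher, at 191 and 76.8 CPM, 1.31 (1.06 to 1.57). Without the highest cell of each library Gkn3 stood at −2.65, and Mgp at 0.82 (0.51 to 1.12). Without the 2% of cells highest for the gene, Mgp changed direction, to −0.66 (−1.31 to −0.03). Gkn3 then had 1 and 29 UMIs left, at −4.29. Efnb2, Sema3g and Hey1 had ratios of −0.24, −0.41 and −0.50 with intervals that held 0, and Notch4 had 0.35 (0.05 to 0.65), under 1.5-fold. With mitochondrial, ribosomal and haemoglobin genes left out of the total, 5 genes were again lower and 1 higher.

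A sum over all endothelial-like cells mixes the level within a zone with the number of cells of that zone and the UMIs per cell. Arterial-like cells were 15 of 303 and 32 of 511 endothelial-like cells, at medians of 3339 and 5903 UMIs. With the share of UMIs of each zone set to the mean of both libraries, a step chosen after the data had been seen, the ratios became −0.67 for Bmx, −0.32 for Gkn3, −0.61 for Vegfc, −0.64 for Unc5b and −0.67 for Dll4. Sema3g then stood at 0.05, Hey1 at −0.13 and Efnb2 at −0.14.

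Within arterial-like cells 3 of the 10 genes were lower in the library labelled IL34LacZ/LacZ, against 8.98% of 2193 genes, and 1 was higher, against 7.62%. The median log2 ratio of the 10 genes was −0.03, beside −0.06 over all genes measured. Vegfc was lower, at 1064 and 1952 CPM, −0.88 (−1.22 to −0.55), as were Unc5b, at 248 and 434 CPM, −0.81 (−1.56 to −0.11), and Dll4, from 4 and 31 UMIs, −1.58 (−3.55 to −0.08). Bmx did not differ beyond counting error, at 685 and 736 CPM, −0.10 (−0.56 to 0.34), and neither did Sema3g, −0.26 (−0.91 to 0.35), Efnb2, 0.23 (−0.44 to 0.88), Notch4, 0.05 (−0.83 to 0.87), or Hey1, 0.72 (−0.36 to 1.75). Mgp was at log2 2.11 (1.75 to 2.48), and without its highest cell in each library at 0.66 (0.05 to 1.25). Gkn3 was at 0.40 (−0.05 to 0.85), and without its highest cell in each library at −0.87 (−1.77 to −0.06). With each cell thinned to 1000 UMIs, Vegfc stood at −0.16 (−0.97 to 0.60) in arterial-like and −0.17 (−0.78 to 0.43) in all endothelial-like cells. Dll4 then had a UMI in 2 of 15 and 0 of 32 arterial-like cells, too few to give a direction.

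**Figure D4:**
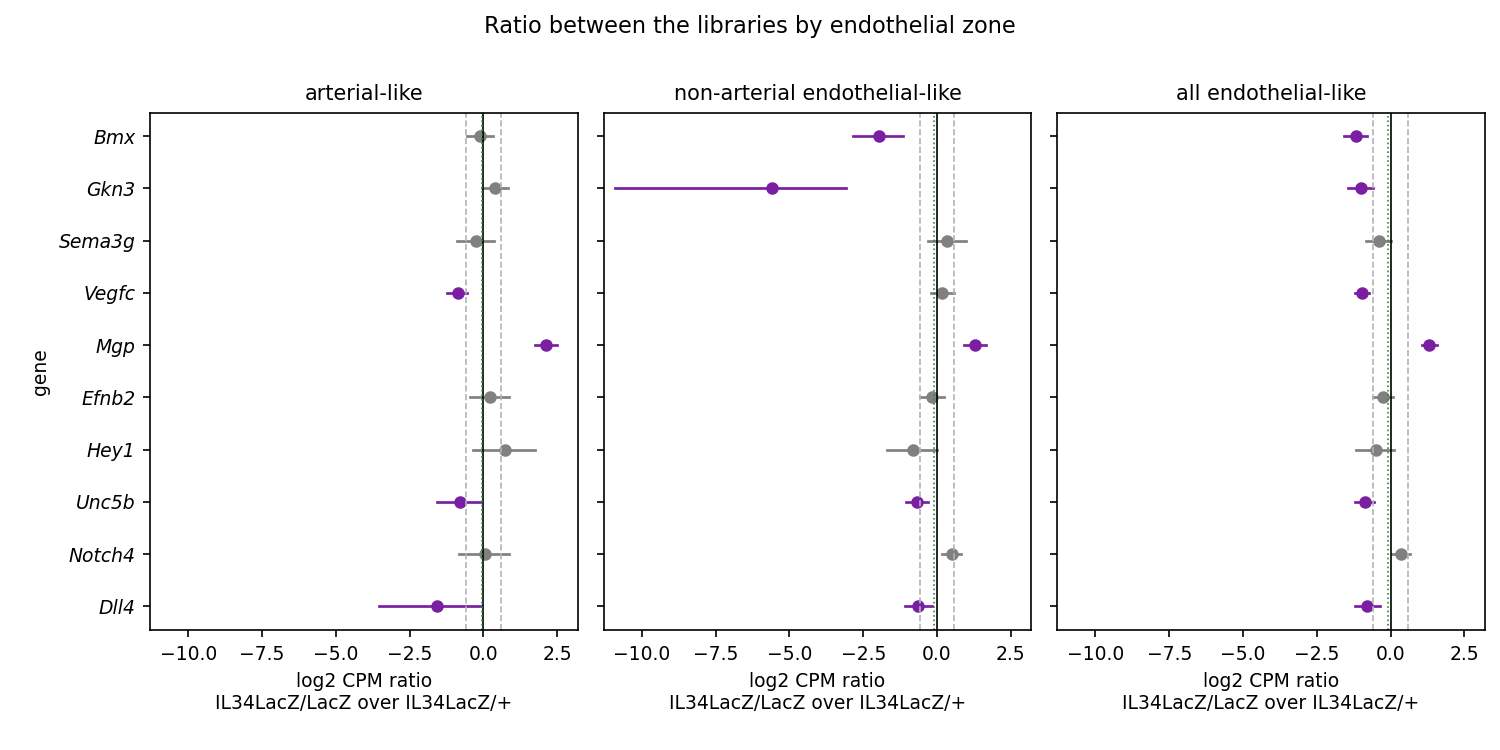
Log2 ratio of CPM of the IL34LacZ/LacZ over the IL34LacZ/+ library for each gene in arterial-like, non-arterial and all endothelial-like cells; points are ratios, lines exact 95% intervals of counting error, purple marks genes past 1.5-fold with an interval without 0, dashed lines stand at 1.5-fold and the dotted line at the median of all genes measured. Bmx lies near 0 in arterial-like cells and at −1.96 in non-arterial cells, and Mgp lies right of 0 in all 3 panels.

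In non-arterial endothelial-like cells 4 of the 10 genes were lower in the library labelled IL34LacZ/LacZ, against 7.42% of 9351 genes, and 1 was higher, against 2.43%. Their median log2 ratio was −0.40, beside −0.09 over all genes measured. Bmx had 15 UMIs in 288 cells of the library labelled IL34LacZ/LacZ and 83 UMIs in 479 cells of the library labelled IL34LacZ/+, a ratio of −1.96 (−2.86 to −1.16), and without the highest cell of each library 8 and 53 UMIs, −2.21 (−3.49 to −1.13). Gkn3 had 1 and 69 UMIs, −5.60 (−10.9 to −3.08), which rests on the 2 cells named above. Dll4, spread over many cells, stood at 36.3 and 56.2 CPM, −0.63 (−1.09 to −0.18), and Unc5b at 54.8 and 87.6 CPM, −0.68 (−1.05 to −0.32). Mgp was at 1.27 (0.90 to 1.65) and, without its highest cell in each library, at −0.94 (−1.63 to −0.29), so 1 cell set its direction. Vegfc, at 60.1 and 53.2 CPM, had 0.18 (−0.22 to 0.56), and Notch4, at 95.3 and 67.5 CPM, had 0.50 (0.17 to 0.82), under 1.5-fold. Other endothelial cells, taken alone, had 5 of the 10 lower, beside 7.73% of 8840 genes, and 1 higher, beside 1.86%. Bmx there stood at −2.98, from 4 and 50 UMIs, Efnb2 at −0.60 (−1.11 to −0.11), Dll4 at −0.63 and Unc5b at −0.69. Of these other endothelial cells, 2 of 241 and 13 of 433 held at least 5 of the 10 genes. The part of those cells in the ratios was not tested. Mgp stood at 1.54, from 153 and 83 UMIs, of which 1 cell of the library labelled IL34LacZ/LacZ held 138, and at −1.33 (−2.25 to −0.49) without the highest cell of each library.

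Outside the endothelium, Unc5b and Mgp lay close together between the libraries in the classes that held most of their UMIs. Neither gene measured in oligodendrocyte-like cells passed, beside 1.69% of 9883 genes higher and 3.15% lower, and Unc5b there had a log2 ratio of −0.06 (−0.19 to 0.08). Mgp in meningeal border-like cells had 0.19 (0.16 to 0.22), and Vegfc there had 0.17 (−0.22 to 0.56). Bmx in meningeal border-like cells was higher, from 29 and 13 UMIs, at 1.29 (0.30 to 2.36), beside 2.99% of 9140 genes higher and 6.21% lower. Hey1 in astrocyte-like cells had −0.38 (−1.07 to 0.28), beside 2.65% of 9597 genes higher and 3.78% lower. Mgp was lower in pericyte-like cells, at −1.43 (−1.82 to −1.04), beside 11.3% of 3071 genes lower and 9.61% higher, and in fibroblast-like cells, at −4.92 (−6.26 to −3.85), beside 9.38% of 3369 genes lower. Without the highest cell of each library these became −0.71 (−1.21 to −0.22) and −3.62 (−5.57 to −2.16).

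Between the libraries, in endothelial-like cells, 1 of 21 listed Notch pathway genes and partners was lower in the library labelled IL34LacZ/LacZ and 0 higher. The list median was −0.03. Of all genes measured in these cells, 7.13% were lower and 2.57% higher, and the counts of this and the next 3 lists are to be read beside these shares. This was Lfng, a glycosyltransferase that tunes Notch for its ligands, at 26.6 and 41.5 CPM, −0.64 (−1.16 to −0.13). The more abundant Maml2, Nrp1, Adam10 and Numb stood at −0.06, −0.14, −0.03 and 0.19. Of 14 arterial regulators and junction genes 3 were lower and 0 higher, with a median of −0.30. Sox18 stood at 91.8 and 161 CPM, −0.81 (−1.08 to −0.54), and the flow-responsive factors Klf2 and Klf4 at −0.80 (−0.97 to −0.63) and −0.63 (−0.82 to −0.45). Mecom, Cxcl12, Ets1 and Eng, the most abundant of that list, stood at −0.17, −0.48, −0.35 and −0.24. None of 5 measured venous identity genes passed in either direction, with a median of −0.09 and values from −0.25 for Flt4 to 0.39 for Nr2f2. Of 14 receptors and partners, Ntn1 was higher, at 79.4 and 51.9 CPM, 0.61 (0.26 to 0.97), and Bmp6 lower, from 15 and 70 UMIs, −1.66 (−2.57 to −0.84), with a median of 0.01. Venous-like cells, with more Ntn1 than other endothelial cells, held 327938 of 1764160 and 302356 of 2603831 endothelial UMIs. The part of these unequal shares in the Ntn1 ratio was not tested.

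Likeness of pattern was measured as Pearson r of log2(CPM + 10) over 24 profiles, the 12 classes and zones of each library, among 12557 genes. The profiles share libraries and depths, so r is a description. Bmx was most like Esr1, the oestrogen receptor alpha gene, at 0.92, and Sntg2 at 0.89. Gkn3 was most like Sema3g at 0.90 and Bmx at 0.88, Sema3g like Cmpk2 at 0.91 and Gkn3 at 0.90, and Vegfc like Esr1 at 0.85 and Bmx at 0.84. Hey1 was most like Sema3g at 0.83 and Gkn3 at 0.82. Dll4 and Notch4 had other neighbours. Dll4 was most like Slc26a10 and Sox18, both at 0.93, and Notch4 most like Gimap6 at 0.95 and She at 0.94. Efnb2 was most like Plxnd1 and E230020D15Rik, both at 0.91, of which the second overlaps it on the same strand and may share its reads. Unc5b was most like Myo1d at 0.80 and Tbcd at 0.79, and Mgp like Foxc2 and Marveld1, both at 0.84.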

How the data were processed

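The kit was 10x Chromium 3-prime v3.1, per the labels' protocols. Whole-number UMI counts of each gene in each barcode were deposited. Per the file headers, they come from Cell Ranger 7.1.0. The submitters' processing notes name mm10 (GRCm38.p6). Whether free RNA was removed is not stated. Counts were used as deposited. No barcode held fewer than 500 UMIs.

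Barcodes with at least 1000 UMIs, 500 genes and at most 15% mitochondrial UMIs were kept (1175 and 1668 in the libraries labelled IL34LacZ/LacZ and IL34LacZ/+). Scrublet in scanpy 1.11.5 marked 8 (0.681%) and 22 (1.32%) doublets, which were removed. Cells of both libraries were clustered together (2000 variable genes, 30 components, 15 neighbours, Leiden resolution 1) without the 10 genes and also without Il34, sex-linked, haemoglobin, mitochondrial and ribosomal protein genes. A cluster took the name of the marker list with the highest median log2 fold, of at least 1, with 3 markers detected. Endothelial-like cells were clustered again in the same way. Thresholds for names were chosen after a first clustering was viewed, and names rebuilt from the data may differ from the authors'. Microglia-like cells, with 13 and 44 cells, were under the 20 per library needed for comparison.

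UMIs were summed per class and library. CPM carry exact Poisson, shares Clopper-Pearson and log2 ratios exact conditional binomial 95% intervals. They do not allow for the spread between cells or mice. A gene was measured with at least 30 UMIs in both sides together, and counted as higher or lower past 1.5-fold between libraries or 2-fold between zones with an interval that left out 1. A count of 0 is given with the limit that 3 counts would give. The ratio script was tested on simulated data. The genes and lists were chosen with earlier results of these data known. All 10 genes are named, together with list genes that pass, up to 4 others of highest count per list, the 5 genes of highest arterial ratio and the 2 most alike per gene. Genes with few counts in arterial-like cells (Hey2, Hes1, Gja4, Gja5) were named after their values had been seen. Positions come from GENCODE M21.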

Additional observations from a re-analysis of the deposited data

Results flagged for a closer look

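Bmx and Mgp differed between the libraries in opposite directions in different cell classes, and the differences between classes were not tested. The log2 ratio of Bmx (IL34LacZ/LacZ over IL34LacZ/+) was −1.18 in endothelial-like cells, −1.96 in non-arterial endothelial-like cells and −2.98 in other endothelial cells, from 4 and 50 UMIs, but 1.29 in meningeal border-like cells, from 29 and 13 UMIs. In arterial-like cells it was −0.10.

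The log2 ratio of Mgp was 1.31 in endothelial-like cells, 2.11 in arterial-like cells, 1.27 in non-arterial endothelial-like cells and 1.54 in other endothelial cells, where it was −1.33 without the highest cell of each library, but −1.43 in pericyte-like and −4.92 in fibroblast-like cells. Single cells carried much of this. In the library labelled IL34LacZ/LacZ, 2 cells held 272 of 337 endothelial UMIs. In the library labelled IL34LacZ/+, 1 cell held 137 of 178 fibroblast-like UMIs. Meningeal border-like cells, which held nearly all Mgp, had a ratio of 0.19.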

How the results depend on the processing

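Over 16 alternatives, the counts that answer the comparisons stayed within 1.5 times the count reported in 93 cases and left that range in 16, and the cause was not tested. With cells thinned to 1000 UMIs, 2 genes passed as arterial in the library labelled IL34LacZ/LacZ and 5 in the library labelled IL34LacZ/+, 2 were lower between libraries in endothelial-like cells, 0 lower in arterial-like cells, and 1 lower and 0 higher in non-arterial cells, with fewer UMIs to count. With at least 2000 UMIs per cell 1 gene was lower in arterial-like cells, and with 2-fold in place of 1.5-fold 2 were lower in endothelial-like cells. No gene, 0 of 10, was higher in non-arterial cells with no mitochondrial limit, without the top cell, without the top 2% of cells or with arterial cells taken by a score. Without the top 2% of cells 0 were higher in endothelial-like cells and 3 were highest in that class in both libraries. Without sub-clusters that carry markers of other classes, an alternative added after seeing the data, 2 were higher and 2 lower in non-arterial cells.

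Among values that had passed, those of Mgp changed sign. Its log2 ratio in non-arterial cells was −0.85 with no mitochondrial limit, −0.94 without the top cell, −1.16 without the top 2% and −0.32 with the score, and in endothelial-like cells −0.66 without the top 2%. Some values that had not passed changed sign too: Gkn3 in arterial-like cells, reported at 0.40, stood at −0.87 without the top cell, and Sema3g in endothelial-like cells, reported at −0.41, stood at 0.05 with zone shares set to the mean. Bmx in endothelial-like cells ranged from −1.78 to −0.67 over its alternatives. The score took 82 endothelial-like cells, and only 21 of the 47 cells that were arterial-like by cluster were among them. Of all endothelial-like cells, 53 lay near the limit of the score, on either side. Arterial-like cells numbered 13 to 15 and 31 to 33 under the other settings. With 15 and 32 cells, genes of a few UMIs there are not resolved. No paired analysis was possible because each genotype has 1 library.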
